A study of Mus musculus with 6 samples.

Results

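Most of the genes described here act in blood clotting or in the conversion of plasminogen to plasmin, and Serpinf1 and Serpina3n are serpins with other described roles. All were compared between mouse osteosarcoma cell lines and cultured mouse osteoblasts. They were chosen by name as the 9 genes Tfpi, Tfpi2, F3, Plat, Plau, Plaur, Serpine2, Serpinf1 and Serpina3n. Of these, 8 had a named probe set on the array, each with exactly 1, out of 19938 genes in all, and Serpine2 was not analysed here. The osteosarcoma samples were 3 lines grown from primary tumours of C57Bl6 mice with floxed p53 (fl/fl) and floxed Rb (fl/fl) alleles and a Cre transgene under the Osterix promoter, which is active in the osteoblast lineage (Osx-Cre+). OS_493H came from the hip of a female, OS_494H from the hip of a male and OS_716H from the tibia of a female, with ages of 188, 190 and 226 in a unit the labels do not give. They were set against 3 cultures of KUSA4b10, a marrow stromal line labelled C57Bl6, kept for 21 days after confluence in growth medium with ascorbate at 50 ug/ml. All 3 cultures are 1 cell line. Their titles carry a tag each (Ex1, Ex2 and Ex3) that the labels do not explain, and whether they were grown separately is not stated, so the p-values may in part measure technical spread. No ascorbate or differentiation is given for the lines, so effects of the tumour and of culture conditions cannot be told apart.

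Clotting starts when tissue factor, the product of F3, binds factor VII at a cell surface, and tissue factor pathway inhibitor (Tfpi) blocks that complex and factor X. Fibrin and matrix proteins are then broken down by plasmin, which the serine proteases tPA (Plat) and uPA (Plau) cut from plasminogen, uPA while bound to its receptor (Plaur). Serpins are suicide inhibitors of such proteases, although some family members have lost that activity. In bone, osteoblasts make both plasminogen activators, and uPA on tumour cells is widely studied in invasion.

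Values are log2 expression from RMA, measured on Affymetrix Mouse Gene ST arrays, and having only 3 arrays in each group limits their precision. A step of 1 is a factor of 2 in signal, and RMA gives no call of presence, so a low value cannot be read as absence. The median of all values was 7.53. Over all genes, 2622 were higher and 2274 lower in the lines (limma, Benjamini-Hochberg adjusted p under 0.05), or 24.6% of genes. These counts were 1533 and 1211 without culture 1, and 1610 and 1350 without culture 3. Rb1, targeted in the model, was 9.26, 9.70 and 9.87 in OS_493H, OS_494H and OS_716H, against 10.68, 10.66 and 10.66 in cultures 1, 2 and 3. Its probe set may include exons outside the deleted part, so it does not measure allele loss, and Trp53 was not analysed here. The array labelled OS_716H, a female, had Xist at 5.50 and the Y-linked Eif2s3y at 10.11, close to the 5.31 and 9.96 of the male line OS_494H, against 12.62 and 4.08 in OS_493H. Its label is therefore in doubt, and the members' differences and the pathway counts are also given without it. Among the cultures, 3 genes were over 1 log2 unit apart between cultures 1 and 3, against 150 and 186 between these and culture 2.

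The members were picked with earlier results of these arrays in view, so their differences between lines and cultures are given as a description with SE and no test. Tfpi, Serpina3n and Plau were the members with the widest differences, all upward in the lines, followed by Plat with overlapping groups. The other 4 lay between -0.17 and 0.12 on the log2 scale. The groups did not overlap for 3 of the 8 members, all higher in the lines, against 41.5% of all genes in either direction. The adjusted p was under 0.05 for 2 of the 8, Tfpi and Plau, against 24.6% of all genes, for 4 of the 8 without OS_494H, when Plat and Serpina3n joined them, and for 3 of the 8 without culture 2, when Plat joined them. It was under 0.05 for 2 of the 8 without OS_716H. Over all genes, 2733 were higher and 2314 lower without OS_494H, and 2086 and 1793 without culture 2. Without OS_716H, 2796 were higher and 2136 lower. Nothing is read from these counts. The median difference was 0.74 over the members and -0.02 over all genes.

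**Figure D1:**
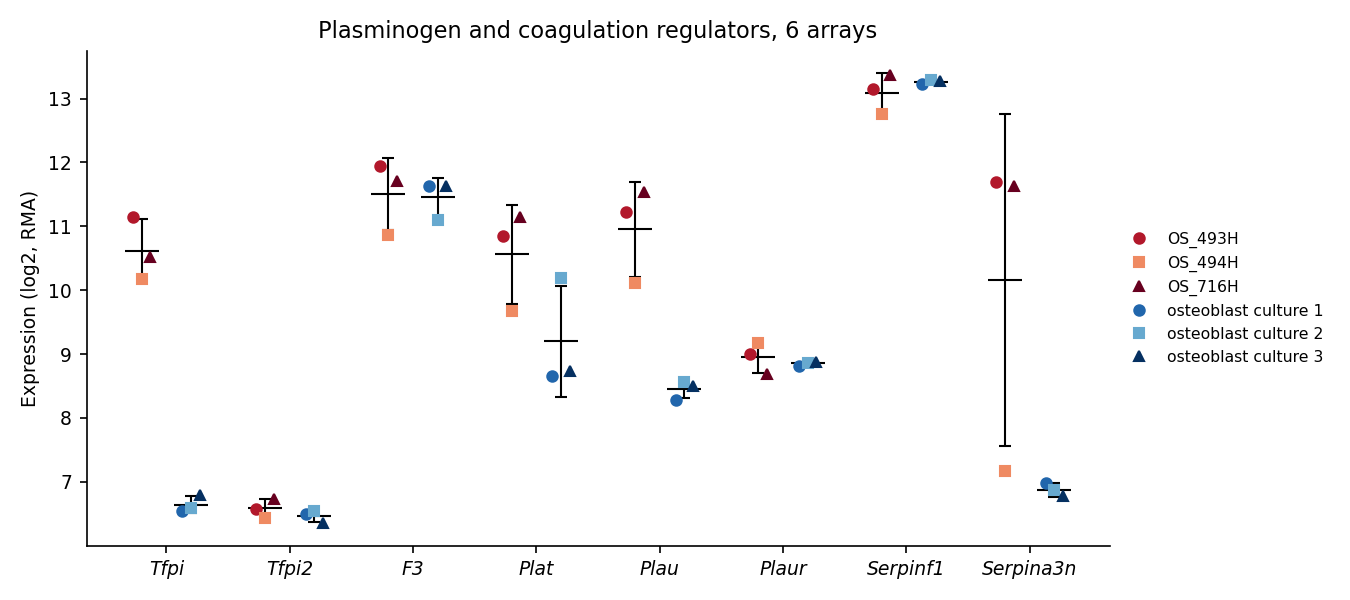
Expression of the 8 measured members on the log2 scale (vertical axis), with osteosarcoma lines left of osteoblast cultures for each gene. Points are single arrays, the long dashes are group means and the bars are SD (n = 3). Tfpi lies at 10.17 to 11.15 in the lines and 6.55 to 6.79 in the cultures, and Serpina3n of OS_494H, at 7.17, lies far from the other lines.

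Tfpi was higher in every line. Its values were 11.15 (OS_493H), 10.17 (OS_494H) and 10.52 (OS_716H), against 6.55, 6.59 and 6.79 in cultures 1, 2 and 3. The lowest line lay far above the highest culture. The means were 10.61 ± 0.50 in the lines and 6.64 ± 0.13 in the cultures (SD, n = 3 each), a log2 difference of 3.97 ± 0.24 (SE), or 15.7-fold. It was 3.70 to 4.19 on leaving out any 1 array, and 4.02 without OS_716H. Its relative Tfpi2, a Kunitz-type inhibitor of plasmin and trypsin found in extracellular matrix, lay below the median of all values on all arrays. Tfpi2 was 6.58, 6.44 and 6.73 in the lines, against 6.49, 6.54 and 6.35 in the cultures, with overlapping groups and a difference of 0.12 ± 0.10 (SE), or 0.05 without OS_716H.

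F3, the target of Tfpi, lay above the median of all values on every array and showed no clear direction. Its values were 11.94 (OS_493H), 10.87 (OS_494H) and 11.71 (OS_716H), against 11.64, 11.11 and 11.63 in cultures 1, 2 and 3. The groups overlapped, and the lowest values were those of OS_494H and culture 2. The means were 11.51 ± 0.56 and 11.46 ± 0.30 (SD, n = 3 each) in lines and cultures, a difference of 0.05 ± 0.29 (SE). Its sign depended on single arrays, from -0.17 without OS_493H to 0.37 without OS_494H, and it was also negative without OS_716H (-0.05) or culture 2 (-0.13).

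The sequences before the starts of Tfpi, Serpina3n and F3 are shown because the first 2 had the largest differences and F3 differed by 0.05. They are the 250 bases before each RefSeq start on GRCm38.p6, read 5′ to 3′ along the gene, and Tfpi has 2 listed starts. Capitals mark hits, on either strand, of 5 motifs: the TATA box (TATAAA), an AP-1 site (TGAGTCA), a STAT site (TTCNNNGAA), the GC box (GGGCGG) and the E-box (CACGTG).
Tfpi outer start, chr2:84476760-84477009, minus strand: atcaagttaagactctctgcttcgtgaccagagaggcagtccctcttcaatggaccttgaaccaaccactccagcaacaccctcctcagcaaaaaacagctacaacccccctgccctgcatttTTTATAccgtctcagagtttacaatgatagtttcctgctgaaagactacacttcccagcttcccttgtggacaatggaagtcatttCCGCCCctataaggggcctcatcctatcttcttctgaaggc
Tfpi inner start, chr2:84474175-84474424, minus strand: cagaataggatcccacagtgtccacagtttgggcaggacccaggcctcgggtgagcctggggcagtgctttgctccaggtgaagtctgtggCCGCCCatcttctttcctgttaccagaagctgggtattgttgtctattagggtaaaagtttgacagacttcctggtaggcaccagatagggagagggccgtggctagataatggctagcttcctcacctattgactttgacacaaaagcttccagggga
Serpina3n, chr12:104406458-104406707, plus strand: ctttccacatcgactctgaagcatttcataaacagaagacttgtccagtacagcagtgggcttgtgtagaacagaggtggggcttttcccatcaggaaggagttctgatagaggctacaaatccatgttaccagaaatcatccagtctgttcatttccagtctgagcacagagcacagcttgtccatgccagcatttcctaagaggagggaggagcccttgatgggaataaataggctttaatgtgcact
F3, chr3:121723287-121723536, plus strand: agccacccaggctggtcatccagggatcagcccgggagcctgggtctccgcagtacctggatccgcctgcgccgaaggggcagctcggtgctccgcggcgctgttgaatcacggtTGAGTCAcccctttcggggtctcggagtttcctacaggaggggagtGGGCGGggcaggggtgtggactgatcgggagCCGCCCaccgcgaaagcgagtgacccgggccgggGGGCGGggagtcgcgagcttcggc
The outer Tfpi window held 1 TATA box and 1 GC box and the inner one 1 GC box. The Serpina3n window held none of the 5 motifs, and the F3 window held 1 AP-1 and 3 GC box hits. In these 4 windows, hits of different motifs overlapped 0 times. Of 32851 such windows of all RefSeq starts, 12.4% held a TATA box, 4.46% AP-1, 7.02% STAT, 32.7% a GC box and 6.02% an E-box. CG dinucleotides numbered 3 and 3 in the Tfpi windows, 1 in Serpina3n and 24 in F3, and the median window had 6. A match is a description of letters and not a binding site, and the arrays hold no measurement of binding or methylation at these starts.

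Both plasminogen activators had higher means in the lines, Plau more clearly. Plau had values of 11.22 (OS_493H), 10.11 (OS_494H) and 11.53 (OS_716H), against 8.29, 8.56 and 8.50 in cultures 1, 2 and 3. Each line lay above each culture. The means were 10.96 ± 0.75 in the lines and 8.45 ± 0.14 in the cultures (SD, n = 3 each), a log2 difference of 2.51 ± 0.35 (SE), or 5.68-fold, and 2.22 to 2.93 on leaving out any 1 array, the lowest without OS_716H. Plat was 10.85, 9.68 and 11.15 in the same lines, against 8.66, 10.20 and 8.74 in the cultures. Culture 2 therefore lay above OS_494H, and the groups overlapped. The Plat difference was 1.36 ± 0.53 (SE), and 1.07 without OS_716H or 1.86 without culture 2.

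For Plat, culture 2 exceeded the mean of the other cultures by 1.496 on the log2 scale, and for Plau by 0.17. Markers of dividing cells moved with culture 2: the mean of 7 measured markers was 11.47, 11.88 and 11.49 in OS_493H, OS_494H and OS_716H, and 8.87, 9.89 and 8.75 in cultures 1, 2 and 3. Culture 2 also had the highest mean of the cultures for osteoblast and smooth muscle markers. It had the lowest for adipocyte markers, where culture 1 lay furthest from the others. The mean of 8 osteoblast and osteocyte markers was 11.80, 12.36 and 11.56 in cultures 1, 2 and 3, that of 6 smooth muscle markers 8.20, 8.62 and 8.21, and that of 9 adipocyte markers 11.33, 10.67 and 10.88. Of the smooth muscle markers, Tagln in culture 2 was 1.73 above the mean of the other cultures, Acta2 0.88 and Cnn1 0.24. Myh11, Des and Myocd went the other way, at -0.07, -0.20 and -0.08. Alone of the osteoblast markers, Dmp1 in culture 2 was below the mean of the other cultures (-0.54). Alone of the adipocyte markers, Lep was above it (0.31). The part of these markers in the Plat values was not tested. In such bulk RNA, fewer cells of a type and less RNA per cell cannot be told apart.

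The uPA receptor differed little between the groups. Plaur was 8.997, 9.18 and 8.69 in OS_493H, OS_494H and OS_716H, against 8.82, 8.86 and 8.88 in the cultures. The cultures fell inside the range of the lines, and OS_494H was the highest of all arrays. The difference was 0.10 ± 0.13 (SE), and it changed sign, to -0.01, without OS_494H and was 0.24 without OS_716H.

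The 2 measured serpins had unlike profiles. Serpinf1 encodes PEDF, a secreted serpin without protease inhibition that restrains vessel growth and whose loss causes a brittle-bone disease in humans. It was 13.15, 12.76 and 13.36 in OS_493H, OS_494H and OS_716H, against 13.23, 13.29 and 13.27 in cultures 1, 2 and 3. The groups overlapped, with a difference of -0.17 ± 0.15 (SE), which came to -0.01 without OS_494H and -0.31 without OS_716H. Serpina3n, a secreted inhibitor related to human antichymotrypsin that blocks granzyme B in mice, reached 11.69 and 11.64 in OS_493H and OS_716H but 7.17 in OS_494H. The cultures had 6.99, 6.87 and 6.77. The lines thus lay above the cultures, but OS_494H by only a small step. The mean difference of 3.29 ± 1.17 (SE) describes no single line, and it was 4.79 without OS_494H, 2.52 without OS_493H and 2.55 without OS_716H. The neighbouring Serpina3 genes of the same cluster are close copies, and whether the probes separate them was not tested.

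OS_494H was the lowest of the 3 lines for 7 of the 8 members, all except Plaur, whereas 29.8% of all genes were lowest there. OS_494H lay below the mean of the other lines by 0.5 log2 units or more for 5 members, or 62.5%, against 4.89% of all genes. This order was not limited to the members: of the 69 other measured genes of the pathway, described further on, 37 were lowest in OS_494H and 10, or 14.5%, by at least that gap. Of the 8 of these called higher in the lines, 4 were lowest there and 37.5% by that gap. The shares were not compared by a test. A gene whose arrays all lie within 0.5 log2 units cannot show that gap. This held for 11443 of all 19938 genes, for 40 of the 69 and, among the members, for Tfpi2 and Plaur. Such flat genes lower the share over all genes. It is therefore not a matched baseline for members picked with earlier results in view. The gap to that mean was -4.50 for Serpina3n, -1.32 for Plat, -1.26 for Plau, -0.96 for F3 and -0.67 for Tfpi. OS_493H and OS_716H were nearer to each other for Serpina3n, Plat, Plau and F3, with OS_493H minus OS_716H at 0.06, -0.30, -0.31 and 0.23. For Tfpi that difference was 0.64. There OS_716H, at 10.52, lay nearer to OS_494H, at 10.17, than to OS_493H, at 11.15. Each line is 1 array, so no test of a difference between lines can be had. Beside this, OS_494H had the lowest mean over 9 adipocyte markers, at 7.53, against 8.03 in OS_493H and 7.80 in OS_716H. Most of this lay in Lpl and Fabp4, -1.78 and -1.20 from the mean of the other lines. Adipoq was above that mean by 0.30, and the rest were at -0.23 to -0.05. OS_494H also had the highest mean of dividing cell markers. The part of these markers in the order of the lines was not tested. The SD was larger over the lines than over the cultures for 7 of 8 members and for 65.8% of all genes, with Plat the exception at 0.77 in the lines and 0.86 in the cultures.

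**Figure D2:**
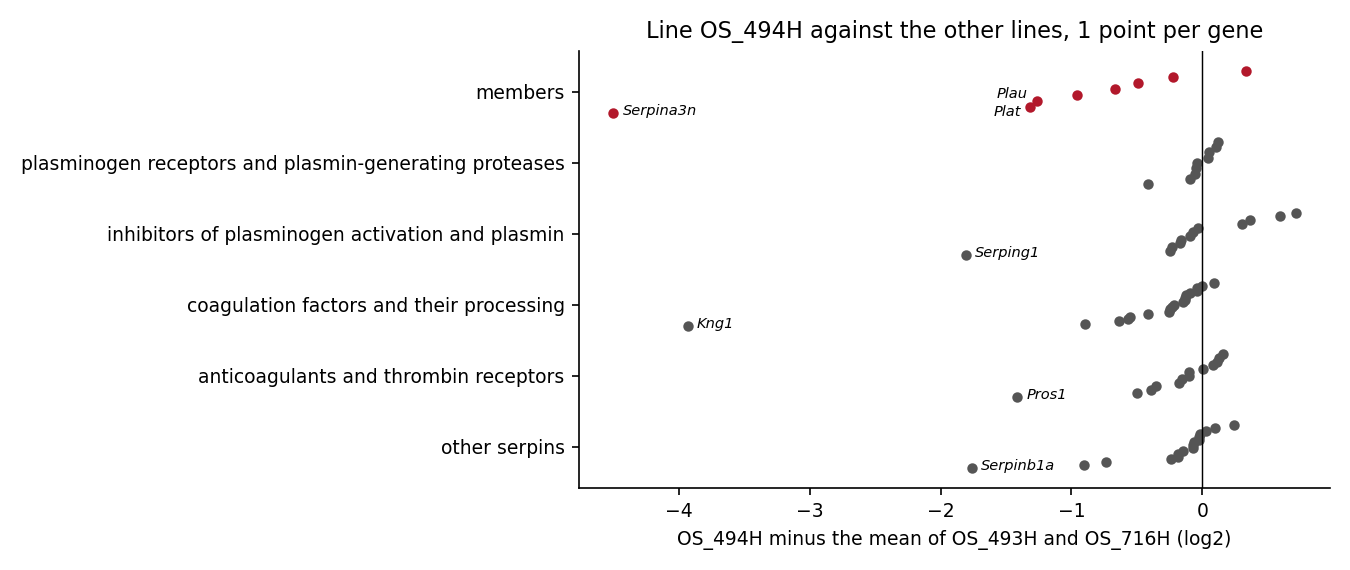
The value of OS_494H minus the mean of OS_493H and OS_716H (log2, horizontal axis) for the 8 members and the 69 other measured genes of the pathway, by list. Each point is 1 gene, and those under -1 are named. Serpina3n (-4.50) and Kng1 (-3.93) lie far left of the rest.

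The other genes of the pathway were taken from 5 lists by role, of which 69 of 84 genes were measured. Of these 69, 8 rose and 5 fell in the lines (limma adjusted p under 0.05), or 18.8%, while 13.2% of all genes rose and 11.4% fell. Their median difference was -0.03. On leaving out 1 array the counts were 5 to 7 higher and 3 to 7 lower, with 5 higher without culture 1, 3 lower without culture 2 or culture 3, and 6 higher and 7 lower without OS_716H. For 40 of the 69, all 6 arrays lay within 0.5 log2 units, as they did for 11443 of all 19938 genes, a similar share.

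**Figure D3:**
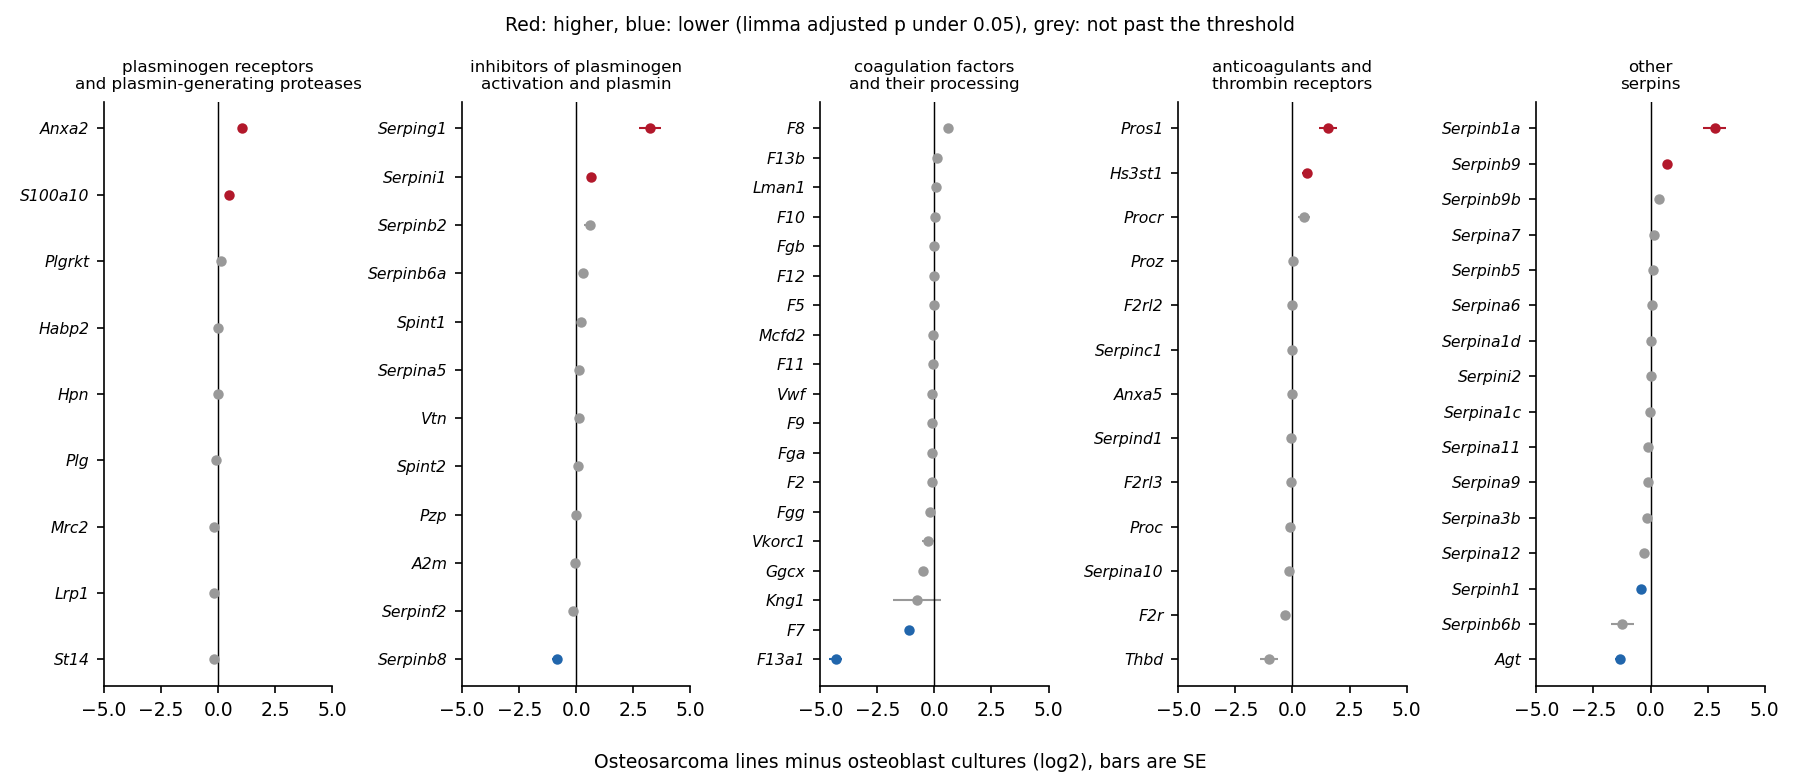
Log2 differences, lines minus cultures, of the 69 other measured genes in 5 lists (horizontal axis, bars are SE). Red and blue points passed limma's adjusted p of 0.05 upward and downward. The widest differences are the fall of F13a1 (-4.32) and the rises of Serping1 (3.23) and Serpinb1a (2.81).

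Of 9 measured plasminogen receptors and plasmin-generating proteases, 2 rose and none fell by limma, with 2 higher and 1 lower at an unadjusted p under 0.05. They were the partners of one cell-surface plasminogen-binding complex, Anxa2 (annexin A2) and S100a10. Anxa2 was 13.18, 13.15 and 13.03 in OS_493H, OS_494H and OS_716H, against 11.95, 12.40 and 11.93 in cultures 1, 2 and 3. All lines lay above all cultures, and the lines differed little. Its log2 difference was 1.03 ± 0.14 (SE, limma adjusted p = 0.00324), and that of S100a10 was 0.47 ± 0.12 (SE, limma adjusted p = 0.0311). The call of S100a10 was lost without OS_493H, OS_494H, culture 1 or culture 3 (limma adjusted p up to 0.114), which left 1 gene. Plg, plasminogen itself, was at 6.39 to 6.57 on all 6 arrays. Mrc2, a collagen receptor that associates with the uPA receptor, and the clearance receptor Lrp1 each differed by -0.17 and did not pass.

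Of 12 measured inhibitors of plasminogen activation and plasmin, 2 rose and 1 fell. Serping1, the C1 inhibitor that blocks the contact and complement proteases, reached 12.45 and 12.47 in OS_493H and OS_716H and 10.66 in OS_494H, against 9.02, 8.36 and 8.53 in the cultures. Every line lay above every culture, with OS_494H the lowest line, as for Serpina3n. The difference was 3.23 ± 0.50 (SE, limma adjusted p = 0.00501), or 9.37-fold, and 3.83 without OS_494H. Serpini1, neuroserpin, an inhibitor of tPA, rose by 0.65 ± 0.12 (SE, limma adjusted p = 0.00924), at values of 6.12 to 6.54 in the lines. It lay below the median of all values on all arrays (5.61 to 6.54), so the fit on brighter genes left it out. Serpinb8 fell by 0.85 ± 0.21 (SE, limma adjusted p = 0.029), a call lost without any 1 culture (limma adjusted p up to 0.0823), which left none. Serpinb2, an inhibitor of uPA, was 6.09, 7.16 and 6.80 in the lines, against 6.05 to 6.15 in the cultures. It did not pass, but did without OS_493H (limma adjusted p = 0.00898, and up to 0.316 over the alternatives).

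Of 19 measured coagulation factors and genes of their processing, none rose and 2 fell by limma, with 1 higher and 3 lower at an unadjusted p under 0.05. For 12 of them all arrays lay within 0.5 log2 units, as for 11443 of all 19938 genes. F13a1, the catalytic subunit of the transglutaminase that cross-links fibrin and that mouse osteoblasts also make, had the largest difference of the 69 genes. It was 6.31, 6.30 and 7.40 in OS_493H, OS_494H and OS_716H, against 10.9997, 10.99 and 10.99 in cultures 1, 2 and 3. The cultures were nearly equal and far above each line. The difference was -4.32 ± 0.29 (SE, limma adjusted p = 5.12e-04), a 20.0-fold lower level, and -4.69 to -4.14 on leaving out any 1 array. F13a1 is also made by macrophages, and the means of 7 leukocyte and macrophage markers were 6.64 to 6.71 in the lines and 6.56 to 6.65 in the cultures. Of these, 1 rose, Cd14 by 0.53 (limma adjusted p = 0.0163), and 0 fell, with 2 higher at an unadjusted p under 0.05. The part of macrophages in the F13a1 values was not tested. F7, the partner of tissue factor, fell by 1.10 ± 0.11 (SE, limma adjusted p = 0.00138), at 6.67, 6.45 and 6.72 in the lines, against 7.69, 7.88 and 7.58 in the cultures. Ggcx and Vkorc1, which both take part in the vitamin K-dependent carboxylation of clotting factors, differed by -0.51 and -0.28 and did not pass. Ggcx did pass without OS_494H or OS_716H (limma adjusted p = 0.0467 and 0.0305, and 0.0285 to 0.181 over the alternatives). F8 was 9.01, 8.34 and 8.94 in the lines against 8.09, 8.38 and 8.02, and passed as higher without OS_494H (limma adjusted p = 0.0065, and up to 0.211 over the alternatives). Kng1, kininogen, was listed at 9.98 (OS_493H), 6.47 (OS_494H) and 10.82 (OS_716H), against 10.26, 9.59 and 9.67 in the cultures. The difference of -0.75 did not pass (limma adjusted p = 0.677), and Kng1 has a close copy, Kng2, that the probes may not separate.

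Of 13 measured anticoagulants and thrombin receptors, 2 rose and none fell by limma, with 2 higher and 1 lower at an unadjusted p under 0.05. Pros1, protein S, the cofactor of activated protein C and of Tfpi, stood at 11.37 (OS_493H), 10.03 (OS_494H) and 11.50 (OS_716H), against 9.30, 9.70 and 9.27 in the cultures. The groups did not overlap, and OS_494H differed from the mean of the other lines by -1.41. The difference was 1.54 ± 0.39 (SE, limma adjusted p = 0.0298), and the call was lost on leaving out any 1 array except OS_494H (limma adjusted p up to 0.105). Hs3st1, a sulfotransferase that makes the antithrombin-binding site of heparan sulfate, lay below the median of all values on all arrays (6.04 to 7.15). The fit on brighter genes left it out. It rose by 0.62 ± 0.18 (SE, limma adjusted p = 0.0477). That call was lost on leaving out any 1 array except culture 3 and with array weights (limma adjusted p up to 0.12), and the list then had 0 or 1 gene higher. Thbd, thrombomodulin, was 10.18, 8.94 and 8.70 in the lines, against 10.53, 9.89 and 10.50 in the cultures. It did not pass (limma adjusted p = 0.115), but passed as lower without OS_493H (limma adjusted p = 0.0106, and up to 0.285 over the alternatives). The thrombin receptor F2r was at 10.70 to 11.42 on all arrays and did not pass.

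Of 16 measured other serpins, 2 rose and 2 fell. Serpinb1a, an intracellular inhibitor of neutrophil proteases, was 10.41, 8.54 and 10.19 in OS_493H, OS_494H and OS_716H, against 6.73, 7.34 and 6.64 in the cultures. OS_494H was the lowest line, as for Serpina3n and Serping1, at -1.76 from the mean of the others. Its difference was 2.81 ± 0.49 (SE, limma adjusted p = 0.00823). Serpinb9, an inhibitor of granzyme B, rose by 0.74 ± 0.09 (SE, limma adjusted p = 0.00211). Agt, angiotensinogen, a serpin without inhibitory activity that fat cells also secrete, fell by 1.33 ± 0.22 (SE, limma adjusted p = 0.00652). The mean of 9 adipocyte markers was 7.53 to 8.03 in the lines and 10.67 to 11.33 in the cultures, and 8 of them fell. Their part in the Agt or F13a1 values was not tested. Serpinh1, the collagen chaperone, fell by 0.43 ± 0.11 (SE, limma adjusted p = 0.0349). That call was lost without OS_493H, OS_494H, culture 2 or culture 3 and after median centring or with array weights (limma adjusted p up to 0.121), which left 1 gene lower in each case of an array left out. Serpinb6b, at 7.24, 7.22 and 9.01 in the lines, against 8.79, 9.51 and 8.89 in the cultures, passed as lower without OS_716H (limma adjusted p = 0.00479, and up to 0.307 over the alternatives).

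**Figure D4:**
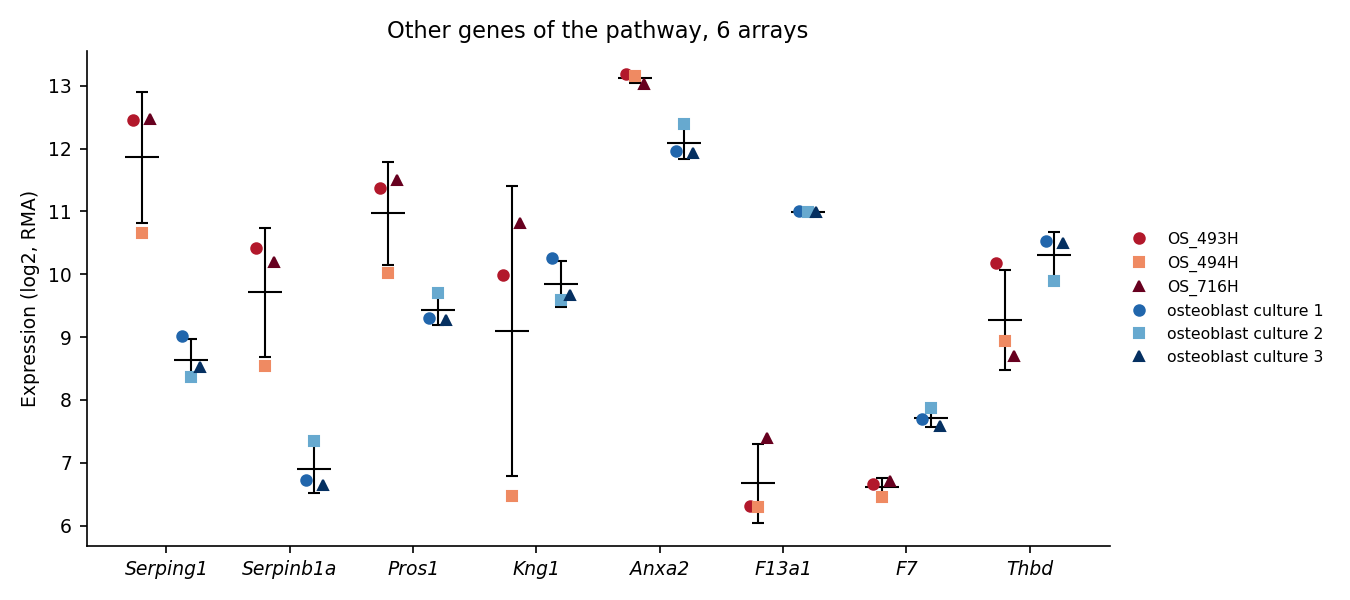
Expression of 8 other genes of the pathway on the log2 scale (vertical axis), lines left of cultures, with single arrays as points, means as long dashes and SD as bars (n = 3). OS_494H is the lowest line for Serping1, Serpinb1a, Pros1 and Kng1, and the 3 cultures coincide for F13a1 at a mean of 10.99.

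The cell types were checked against marker lists. Of 8 measured osteoblast and osteocyte markers 4 fell and none rose by limma, with 4 lower and 0 higher at an unadjusted p under 0.05. The 8 had means of 9.18 to 9.90 in the lines and 11.56 to 12.36 in the cultures. The 4 that fell were Ibsp (-6.16), Phex (-4.73), Dmp1 (-4.36) and Pth1r (-1.71). Alpl (-1.39) and Sp7 (-1.21) had overlapping groups and did not pass. Col1a1 and Col1a2 differed by only -0.07 and -0.03. Endothelial cells and hepatocytes are main sources of many clotting factors in the body. Means of 7 endothelial markers were 6.42 to 6.79 in the lines and 6.37 to 6.41 in the cultures, and means of 5 hepatocyte markers were 5.84 to 5.92 in the lines and 6.09 to 6.13 in the cultures. Albumin (Alb) was at 5.60 to 5.78 on all arrays, while the secreted glycoprotein gene Ahsg fell by 0.50 (limma adjusted p = 0.00884), the 1 hepatocyte marker to pass, with 3 lower at an unadjusted p under 0.05. The others of these 3, Apoa1 and Cyp3a11, differed by -0.24 and -0.29 and did not pass. Endothelial Pecam1 was between 6.54 and 6.63, and 0 endothelial markers passed by limma or at an unadjusted p under 0.05, although Tek was 9.05 in OS_493H. Smooth muscle markers had means of 9.45 to 9.85 in the lines and 8.20 to 8.62 in the cultures, with 2 of 6 higher, and platelet markers had means of 6.91 to 7.79 and 6.69 to 6.81, with 2 of 4 higher.

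The gene whose profile over the 6 arrays was most like that of each member, by Pearson's r, was named as a description, since all share the same 6 arrays and 2 groups. For Serpina3n it was Cyp7b1, an oxysterol hydroxylase (r = 0.998), at 8.50, 5.58 and 8.68 in OS_493H, OS_494H and OS_716H against 5.51 to 5.57 in the cultures. Like Serpina3n, it was high in 2 lines and at culture level in OS_494H. For Plau it was the zinc finger gene Tshz2 (r = 0.997), at 9.75, 8.36 and 10.09 in the lines, against 6.82 to 6.999 in the cultures. For Tfpi it was the lipid transfer gene Mttp (r = 0.999), for Plat the chromatin remodelling gene Smarcd3 (r = 0.996) and for Serpinf1 Vkorc1 (r = 0.999). For F3, Plaur and Tfpi2 they were Tnip1, Mrpl42 and Inava (r = 0.985, 0.991 and 0.986). The range over the 6 arrays was narrow for Tfpi2 (0.38), Plaur (0.49) and Serpinf1 (0.60), and was 1.07 for F3.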

How the data were processed

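Total RNA of 6 samples was hybridised to 1-colour arrays, 1 per sample. The deposited values are log2 expression of 35556 probe sets and, per the submitters' processing notes, were made with RMA and build mm9. For the RMA software, a version is not given in the sources used here. The method equalises the arrays and compresses large differences. Groups were taken from sample titles, and no batch is given, apart from the unexplained tags of the cultures. Probe sets with 1 symbol in the platform annotation (21789, with 1621 of several and 12146 not listed) gave 19938 genes, taking the brightest probe set of a gene by its mean over the 6 arrays. Lines and cultures were compared on all genes in R 4.3.3 with limma 3.58.1 (lmFit, eBayes), two-sided, with Benjamini-Hochberg adjustment and a threshold of 0.05. The fit was tested on simulated data. The members and lists were chosen with earlier results of these arrays known. Genes named are the members, up to 5 called genes per list by size of difference, and the most similar profile per member. Kng1, Thbd, F8, Ggcx, Vkorc1, Serpinb2, Serpinb6b, F2r, Plg, Mrc2, Lrp1 and single marker genes were named after their values were seen. Promoter windows are from RefSeq (GRCm38.p6), which held windows for 7 of the 9 genes. The fit was repeated after quantile normalisation or median centring, on brighter genes, and with an intensity trend, robust moderation, array weights, probe set means, stricter thresholds and leaving out each array.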

Additional observations from a re-analysis of the deposited data

How the results depend on the processing

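The 8 member differences kept their sign and moved by less than 1 SD (pooled over both groups) under quantile normalisation, median centring and array weights, and averaging probe sets could not move them, since each member has 1. Leaving out 1 array gave 3.70 to 4.19 for Tfpi, 0.05 to 0.20 for Tfpi2, -0.17 to 0.37 for F3, 1.07 to 1.86 for Plat, 2.22 to 2.93 for Plau, -0.01 to 0.24 for Plaur, -0.31 to -0.01 for Serpinf1 and 2.52 to 4.79 for Serpina3n, so that F3 and Plaur changed sign. The count of members called was 4 with array weights, where 3322 of all genes were higher and 2877 lower, more than in the main fit. It was 2 to 4 on leaving out 1 array, with Plat and Serpina3n added without OS_494H and Plat without culture 2. Over all genes, leaving out 1 array gave 1533 to 2796 higher and 1211 to 2314 lower, with 1533 and 1211 without culture 1 and 1610 and 1350 without culture 3. At an adjusted p under 0.01, 1394 genes were higher and 1072 lower, and 5 pathway genes were higher and 3 lower. With at least a 2-fold change, 811 and 561 genes and 4 and 3 pathway genes passed. Leaving out 1 array gave 5 to 7 pathway genes higher and 3 to 7 lower. The members with a larger SD among lines numbered 5 to 8. Of 167 repeats of the tests of 13 named pathway genes, 143 kept their call, 24 lost it and none turned direction. The cause was not tested. No paired analysis was possible because the lines came from tumours and the cultures from KUSA4b10, so no line has a matching culture. With 3 arrays per group, small differences cannot be resolved, and low values have no detection call.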
